A study of Mus musculus with 12 samples.

Results

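The messages of the creatine kinase circuit and of adenine nucleotide buffering were described in triceps brachii, which extends the elbow, from 12 C57/BL6 males. The set held 9 genes of the 10187 in the table and all 9 were found by symbol: the creatine kinases Ckm, Ckmt2 and Ckb, the creatine synthesis and uptake genes Gatm, Gamt and Slc6a8, the adenylate kinase Ak1 and the AMP deaminases Ampd1 and Ampd3. The genes were chosen by symbol, but selected on an earlier result of these same values, the difference of Ckmt2 between active and inactive mice, so that difference is given as a description. The 4 groups of 3 mice crossed activity with genotype and were inactive wild-type (IW), active wild-type (AW), inactive myostatin-reduced (IM) and active myostatin-reduced (AM). Myostatin-reduced mice carried Mstn with exon 3 floxed, and every mouse, wild-type included, received chow with 0.025% tamoxifen for 6 weeks, started at 4 months of age, to activate Cre recombinase. The promoter that drives Cre was not given in the sources used here. Active mice were moved at 6 months of age to individual cages with a running wheel for 12 weeks, and the amount of running was matched between genotypes by the study. Individual housing and running cannot be told apart in these groups.

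Creatine kinases move a phosphate group between ATP and creatine, so that ATP made in mitochondria can be held as phosphocreatine and released where myosin and ion pumps use it. Mitochondrial creatine kinase sits between the mitochondrial membranes, where it loads creatine, and the cytosolic muscle enzyme near the contractile filaments runs the reaction back to ATP. When ADP accumulates in working muscle, adenylate kinase turns it into ATP and AMP, and AMP deaminase removes the AMP as IMP.

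The stretches of 250 bases before the transcription start of Ckm and Ckmt2 are shown because the cytosolic and the mitochondrial kinase are the members with the highest levels. They were taken from RefSeq on mouse build GRCm38.p6, in the direction of the gene, at chr7:19410844-19411093 (plus strand) for Ckm and chr13:91876886-91877135 (minus strand) for Ckmt2. Capitals mark E-boxes, with the letters CANNTG, and TATA motifs, with the letters TATANAA, searched on both strands.
Ckm: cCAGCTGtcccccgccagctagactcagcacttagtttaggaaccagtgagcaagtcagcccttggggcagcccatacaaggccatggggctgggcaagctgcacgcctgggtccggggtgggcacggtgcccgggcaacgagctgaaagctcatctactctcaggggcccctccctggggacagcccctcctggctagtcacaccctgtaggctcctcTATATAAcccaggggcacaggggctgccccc
Ckmt2: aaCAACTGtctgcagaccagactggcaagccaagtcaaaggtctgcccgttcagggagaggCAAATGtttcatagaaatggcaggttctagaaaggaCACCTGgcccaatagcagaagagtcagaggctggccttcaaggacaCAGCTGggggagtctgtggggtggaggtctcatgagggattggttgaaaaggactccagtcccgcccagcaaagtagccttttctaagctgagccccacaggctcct
The Ckm stretch held 1 E-box and 1 TATA motif, and the Ckmt2 stretch held 4 E-boxes and no TATA motif. Among 32851 mouse promoter stretches of the same length, 66.22% held an E-box and 10.41% a TATA motif. The E-boxes and the TATA motif did not overlap in these stretches.

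The values are normalized read counts per gene, which the authors scaled so that trimmed means were equal among samples. Samples summed to between 927958 and 1080140 normalized reads over the genes of the table, equal to an estimated 9022691 to 12188516 reads. Values were compared with limma on log2(value + 1), and a gene passed the test at a Benjamini-Hochberg adjusted p under 0.05 over the 7247 genes that averaged 10 or more. Mstn was between 79.7 and 138 in the 6 wild-type mice and between 8.70 and 21.6 in the 6 myostatin-reduced mice (log2 change -2.66, SE 0.158, limma adjusted p = 1.29e-06). All 10 skeletal muscle markers were in the table, and their sum was also higher in every IM mouse (128725 to 135552) than in every other mouse (102525 to 123551). The 10 slow-fibre markers were also present, and their summed normalized read count differed widely within groups, with IW between 82.7 and 1321, AW between 141 and 1763, IM between 72.5 and 103 and AM between 109 and 1295. The summed fast-fibre markers were between 207322 and 215703 for IM, above every other mouse, and between 136372 and 195548 elsewhere. In a bulk sample, fewer fibres of a type and less RNA per fibre cannot be told apart. Among markers of other cells, the 5 endothelial markers summed to 189 to 197 for IM, 220 to 274 for IW, 219 to 376 for AW and 245 to 409 for AM. The 5 of 6 adipocyte markers in the table summed to 105 to 131 for IM, 124 to 178 for IW, 160 to 226 for AW and 135 to 230 for AM. The part of these cells in the results was not tested.

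Divided by the length of exon, Ckm had the highest level of the set at 17295 normalized reads per kb (mean of 12 mice, range 13602 to 21280), and it took 2.00% to 2.79% of the summed normalized reads of a sample. Ckmt2 followed at 1132 per kb (range 609 to 1765) and Ak1 at 586 per kb (range 517 to 654). Ampd1 was at 304 per kb, and the creatine transporter gene Slc6a8 at 33.6 per kb. The remaining genes were low, with Gamt at 8.60, Ampd3 at 3.25, Ckb at 2.04 and Gatm at 1.31 per kb. The ranges of Ckmt2 and Ak1 overlapped, with Ckmt2 above Ak1 in 11 of 12 mice, and so did those of Gamt and Ampd3, of Ampd3 and Ckb and of Ckb and Gatm. The muscle-type member led each enzyme pair, with Ckm above Ckb and Ampd1 above Ampd3 in every mouse.

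**Figure D1:**
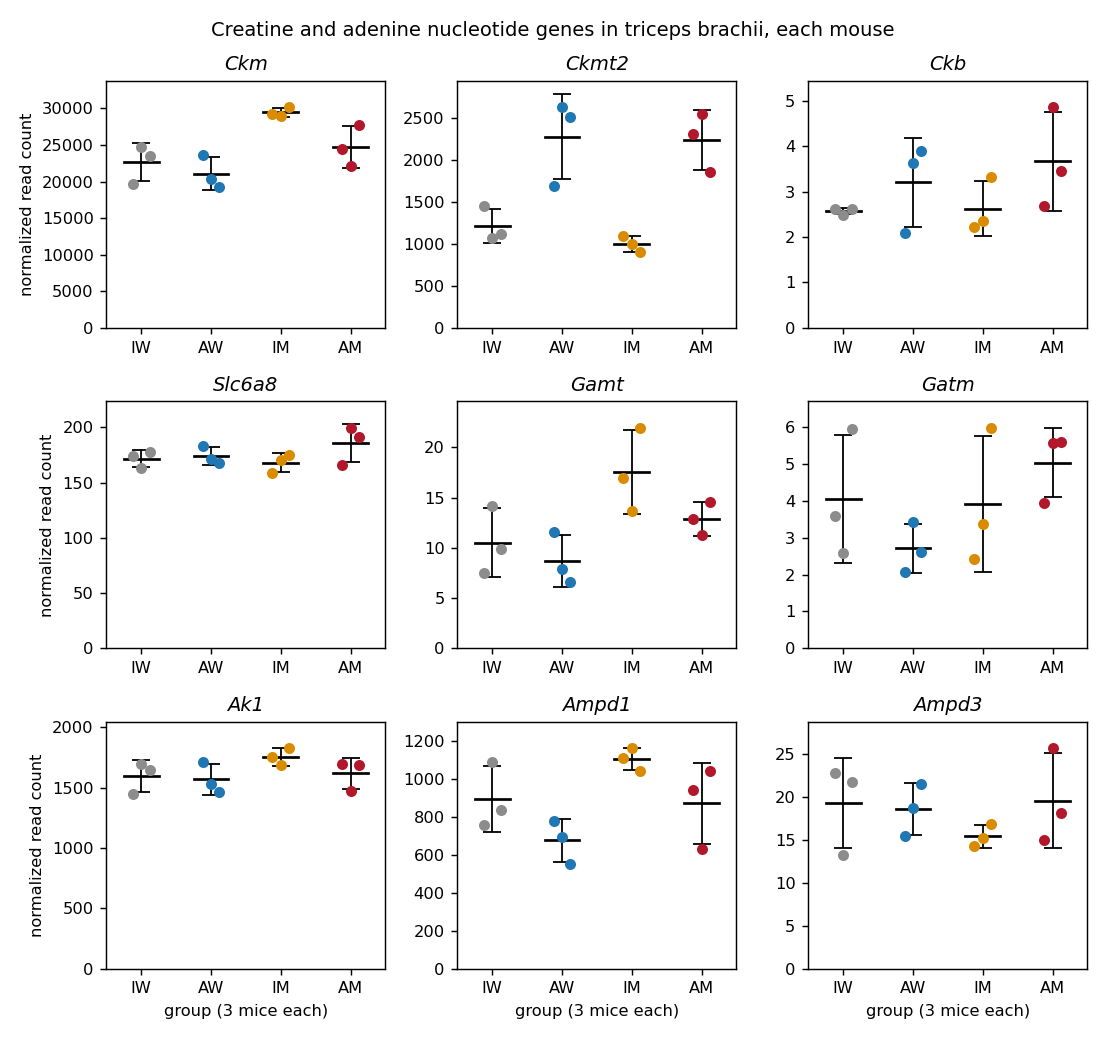
Normalized read counts (vertical axes, from 0) of the 9 genes in each of the 4 groups (horizontal axes), with a point for each mouse, a long bar for the mean and error bars for the SD (n = 3). All 6 active mice lie above all 6 inactive mice for Ckmt2, and all 3 IM mice lie above all 3 IW and all 3 AM mice for Ckm.

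Between active and inactive mice, Ckmt2 was higher in the active mice and no other member passed the test. Of the 7 members tested, 1 passed the test for activity (Ckmt2), against 14.5% of all genes tested, and since the set was selected with that difference known, nothing is read from the count. Between genotypes 1 of 7 passed, against 5.78% of all genes, and this was Gamt, which was higher in myostatin-reduced mice. The activity-by-genotype interaction passed for 0 of 7 members and for 0 genes in all (0%), with 0 members and 297 genes at an unadjusted limma p under 0.05. Within wild-type mice, AW minus IW passed for 0 of 7 members, against 0.0276% of all genes. At an unadjusted limma p under 0.05 there were 2 of 7 members and 1067 of 7247 genes. Ckmt2, on which the set was selected, was 1 of these 2 members. Within myostatin-reduced mice, AM minus IM passed for 1 of 7, against 7.84%, and this was again Ckmt2, whose difference here is part of the one that the set was selected on, so nothing is read from this count either. IM minus IW passed for 0 of 7, against 2.51%, with 2 of 7 members and 1262 of 7247 genes at an unadjusted limma p under 0.05. AM minus AW passed for 0 of 7, against 0.207%, with 1 of 7 members and 894 of 7247 genes at that unadjusted level. The median log2 change of the 7 members was -0.07 for activity and 0.09 for genotype, beside -0.02 and -0.0049 over all genes tested.

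Ckmt2 encodes the sarcomeric mitochondrial creatine kinase. It lies on chromosome 13 at 91992992 to 92016490 of build mm9, on the minus strand. Inactive wild-type mice 1, 2 and 3 had normalized read counts of 1447, 1068 and 1123, against 1695, 2623 and 2514 for AW. Inactive myostatin-reduced mice had 1097, 999 and 905, against 2310, 2547 and 1852 for AM. Every active mouse stood above every inactive mouse, a separation seen for 3.49% of all 10187 genes, and the active groups also did not overlap the inactive groups within a genotype. The mean rose 1.88-fold among wild-type mice, from 1213 ± 205 to 2277 ± 508, and 2.24-fold among myostatin-reduced mice, from 1000 ± 96.0 to 2236 ± 353 (SD, n = 3). Over both genotypes the log2 change was 1.02 (SE 0.122, 95% interval 0.76 to 1.29). The mouse with the highest slow-fibre sum of its group had the highest Ckmt2 of that group in 2 of 4 groups. When a slow-fibre score of each mouse was added to the model (fibre score adjustment), the log2 change of Ckmt2 with activity was 0.79 (SE 0.0728). The score was measured after the running period and varied with the groups (IW -2.10 to 2.02, AW -1.05 to 2.56, IM -2.30 to -1.43, AM -1.67 to 2.14). For every gene, the adjustment can therefore also take out part of a change with activity or genotype. The part of fibre content in these changes was not tested.

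Ckmt2 did not pass the test between genotypes. The log2 change of reduced against wild-type mice was -0.14 (SE 0.122, 95% interval -0.41 to 0.12, limma adjusted p = 0.543). The 3 AM values lay within the range of the AW values, and the IM mice overlapped the IW mice. The difference between the activity changes of the genotypes was 0.26 on the log2 scale, with a 95% interval of -0.27 to 0.79.

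Ckm encodes the cytosolic muscle creatine kinase. It lies on chromosome 7 at 19996443 to 20006932 of build mm9, on the plus strand. Its normalized read count was 19718, 24753 and 23543 in IW mice 1, 2 and 3 and 23581, 20285 and 19247 in the AW group. The IM group had 29236, 28959 and 30111 and the AM group 24396, 22082 and 27762. The IM mice formed the highest and tightest group, at 29435 ± 602 against 22671 ± 2628 for IW, 21038 ± 2263 for AW and 24747 ± 2856 for AM (SD, n = 3). The summed fast-fibre and skeletal muscle markers were likewise highest in the IM mice, and their part in the Ckm values was not tested. All 3 IM mice stood above all 3 IW mice, as 1 of 9 members and 23.6% of all genes were separated between these groups. All 3 AM mice stood below all 3 IM mice, and Ckm was 1 of 2 members separated there, against 27.2% of all genes. AW and IW overlapped, where 1 of 9 members and 16.2% of all genes were separated, and AM and AW overlapped as well.

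These separations did not pass the test across all genes. The log2 change of Ckm between genotypes was 0.31 (SE 0.0916, 95% interval 0.11 to 0.51, limma adjusted p = 0.0713). IM minus IW was 0.38 (limma adjusted p = 0.144) and AM minus IM was -0.26 (limma adjusted p = 0.232). The activity change was -0.18 (95% interval -0.38 to 0.02, limma adjusted p = 0.202). The genotype change passed without AW mouse 1 (limma adjusted p = 0.039) and without AM mouse 2 (limma adjusted p = 0.0473). It passed with sample weights (limma adjusted p = 0.0296) and without the trend (limma adjusted p = 0.0429), and it also passed with fibre score adjustment, where it was 0.21 (limma adjusted p = 0.032). With that adjustment the activity change of Ckm was -0.04. The annotation places A930016O22Rik on the opposite strand over Ckm, and 19.7% of the 65-base words of the Ckm message are found in it, so if strand was not used in counting, reads of that gene could not be told from those of Ckm. Gm17405 overlaps Ckm on the same strand.

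The balance of the creatine kinases is described by the level of Ckmt2 as a share of Ckm. Per kb of exon, Ckmt2 was 6.99%, 4.11% and 4.54% of Ckm in the IW mice and 6.84%, 12.3% and 12.4% in the AW mice. The IM mice had 3.57%, 3.29% and 2.86% and the AM mice 9.02%, 11.0% and 6.35%. The 2 groups of myostatin-reduced mice did not overlap, whereas AW mouse 1 fell just under IW mouse 1. The group means were 5.21% ± 1.55 for IW, 10.5% ± 3.20 for AW, 3.24% ± 0.358 for IM and 8.78% ± 2.32 for AM (SD, n = 3). This share rests on the Ckmt2 difference by which the set was selected and is given without a test. The mouse with the most slow-fibre message had the lowest Ckm of its group in 4 of 4 groups. Counts of this kind were made for the 9 members only, so no share over all genes stands beside them. In the IM group the slow-fibre sums were all low (72.5 to 103), so the order of its mice rests on small differences. Nothing is read from these counts, here or for the other members.

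**Figure D2:**
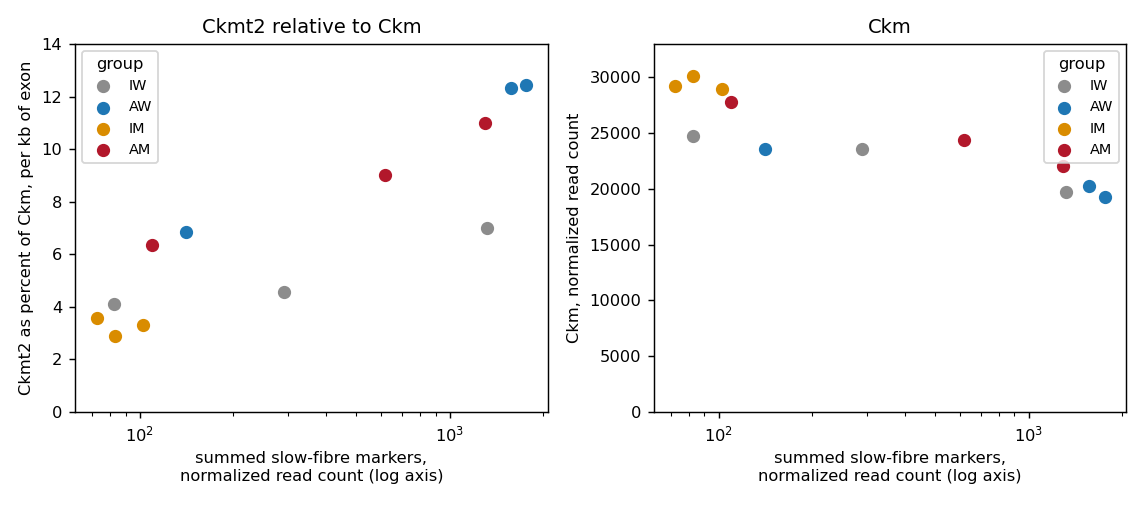
Each point is a mouse, coloured by group, placed by its summed slow-fibre markers in normalized reads (horizontal log axis). The left panel plots Ckmt2 as a percent of Ckm per kb of exon and the right panel the normalized read count of Ckm. Over the 12 mice the share lies between 2.86% and 12.4% and Ckm between 19247 and 30111. The part of fibre content in these values was not tested.

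Ckb, the brain-type cytosolic creatine kinase, lies on chromosome 12 at 112907566 to 112910549 (mm9, minus strand) and was near the lower end of the table. Its values were between 2.08 and 4.85 normalized reads in all 12 mice, or about 21 to 63 reads. Groups that share a genotype or an activity level overlapped. With a mean of 3.02 it was not among the genes tested, and a fit without the filter gave a log2 change of 0.28 for activity (limma adjusted p = 0.254) and 0.08 for genotype (limma adjusted p = 0.816). The ubiquitous mitochondrial kinase Ckmt1 was not analysed here. In the 4 pairs of creatine kinase coding sequences compared, no identical run reached the 65 bases of a read. The longest was 39 bases between Ckmt1 and Ckmt2, 20 between Ckm and Ckb, 17 between Ckm and Ckmt2 and 15 between Ckb and Ckmt2.

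Creatine is made from arginine and glycine by Gatm, which forms guanidinoacetate, and by Gamt, which adds the methyl group. Gamt, on chromosome 10 at 79720896 to 79723757 (mm9, minus strand), was the member that passed the test between genotypes. Its normalized read count was 7.46, 14.2 and 9.92 in IW mice 1, 2 and 3 and 11.6, 7.89 and 6.59 in the AW group. The IM group had 17.0, 13.6 and 22.0 and the AM group 12.9, 11.3 and 14.6, and these values rested on about 76 to 239 reads each. The highest value was in IM and the lowest in AW. Group means were 10.5 for IW, 8.69 for AW, 17.5 for IM and 12.9 for AM. The filter of 10 was thus passed with the help of the myostatin-reduced mice, the AW mean being under it. The genotypes overlapped at each activity level, because IW mouse 2 exceeded IM mouse 2 and AW mouse 1 exceeded AM mouse 2. The genotype mean ratio was 1.66 among inactive mice and 1.49 among active mice, and the log2 change over both was 0.62 (SE 0.165, 95% interval 0.27 to 0.98, limma adjusted p = 0.046). The activity change was -0.32 (95% interval -0.68 to 0.04, limma adjusted p = 0.214).

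The Gamt call lay close to the threshold. It did not pass when any 1 of 8 mice was left out (IW mice 1 and 3, AW mice 2 and 3, IM mice 1 and 3, or AM mice 1 and 3), with a limma adjusted p of up to 0.117 and a log2 change of 0.52 or more in each of those fits. Nor did Gamt pass when replicate number was added to the model as a block (limma adjusted p = 0.0712). In all 4 groups the mouse with the most slow-fibre message had the lowest Gamt of its group. With fibre score adjustment, the genotype change was 0.42 (limma adjusted p = 0.0595) and the activity change was -0.02.

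Gatm, on chromosome 2 at 122420203 to 122437039 (mm9, minus strand), was lower still. Its values were 3.59, 2.58 and 5.95 in IW mice and 2.08, 3.42 and 2.62 for AW, and 2.42, 3.36 and 5.97 for IM and 3.95, 5.55 and 5.58 for AM, from about 23 to 72 reads. All 3 AM mice stood above all 3 AW mice, a mean ratio of 1.86, and Gatm was the 1 of 9 members separated in that comparison, where 14.2% of all genes were. The gene fell under the filter, and in the fit without it the genotype change was 0.33 (limma adjusted p = 0.389) and the interaction 0.75 (95% interval -0.09 to 1.59, limma adjusted p = 0.9).

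Slc6a8, the sodium-dependent carrier that brings creatine into the fibre, had the narrowest range of the members. It lies on chromosome X at 70918489 to 70927841 (mm9, plus strand). All 12 values lay between 159 and 200 normalized reads, a highest-to-lowest ratio of 1.26, and every pair of groups overlapped. The log2 change was 0.08 for activity (95% interval -0.04 to 0.20, limma adjusted p = 0.342) and 0.03 for genotype (95% interval -0.09 to 0.15, limma adjusted p = 0.801).

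Ak1, the cytosolic adenylate kinase of muscle, lies on chromosome 2 at 32477278 to 32502325 (mm9, plus strand) and was almost as steady. Its values were between 1445 and 1827 normalized reads, a ratio of 1.26, and every pair of groups overlapped. The log2 change was -0.07 for activity (95% interval -0.21 to 0.07, limma adjusted p = 0.483) and 0.09 for genotype (95% interval -0.05 to 0.23, limma adjusted p = 0.426). In each of the 4 groups its lowest value was in the mouse with the most slow-fibre message. With fibre score adjustment, its activity change was 0.02, of the opposite sign. Eng overlaps Ak1 on the same strand in the annotation.

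Ampd1, the AMP deaminase of skeletal muscle, lies on chromosome 3 at 102877937 to 102903637 (mm9, plus strand). Its normalized read count was 757, 1092 and 835 in IW mice 1, 2 and 3 and 781, 695 and 555 in the AW group. The IM group had 1113, 1163 and 1044 and the AM group 943, 631 and 1045. The IM mice were high and close together, at 1107 ± 59.7, and the AW mice were low, at 677 ± 114, with IW at 895 ± 175 and AM at 873 ± 215 (SD, n = 3). Active and inactive mice overlapped within each genotype, by AW mouse 1 over IW mouse 1 and by AM mouse 3 over IM mouse 3. The log2 change with activity was -0.39 (SE 0.13, 95% interval -0.67 to -0.10, limma adjusted p = 0.0639), and it passed the test when IW mouse 1, AW mouse 1 or AM mouse 3 was left out, with a limma adjusted p of 0.0471, 0.0361 and 0.035. The genotype change was 0.34 (95% interval 0.05 to 0.62, limma adjusted p = 0.149), and it passed without AM mouse 2 (limma adjusted p = 0.0318).

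In 3 of 4 groups the mouse with the most slow-fibre message had the lowest Ampd1. With fibre score adjustment, the activity change of Ampd1 was -0.15 (limma adjusted p = 0.364) and the genotype change 0.17 (limma adjusted p = 0.287).

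Ampd3, the isoform known from red blood cells and other tissues, lies on chromosome 7 at 117911720 to 117955919 (mm9, plus strand). Its values were 22.8, 13.3 and 21.7 in IW mice and 15.5, 18.7 and 21.5 for AW, and 14.2, 15.2 and 16.8 for IM and 15.0, 25.7 and 18.1 for AM. Every pair of groups overlapped. The log2 change was 0.13 for activity (95% interval -0.19 to 0.46, limma adjusted p = 0.57) and -0.11 for genotype (95% interval -0.43 to 0.21, limma adjusted p = 0.712). Per kb of exon Ampd3 was 0.634% to 2.12% of Ampd1. Its highest value was in the mouse with the most slow-fibre message in 3 of 4 groups, and with fibre score adjustment the activity change was -0.09 and the genotype change 0.05, each of the opposite sign. Alas2, the only red blood cell marker of 5 in the table, was between 2.11 and 7.19 normalized reads.

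Over all 6 myostatin-reduced against all 6 wild-type mice, 0 of 9 members were separated, against 2.12% of all genes. The 95% interval of the interaction held 0 for each tested member, and the values lay between -0.15 for Gamt (95% interval -0.87 to 0.56) and 0.32 for Ampd3 (95% interval -0.32 to 0.96). The intervals of Ckm (-0.55 to 0.25), Ampd1 (-0.54 to 0.59), Ak1 (-0.37 to 0.18) and Slc6a8 (-0.11 to 0.36) also held 0.

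**Figure D3:**
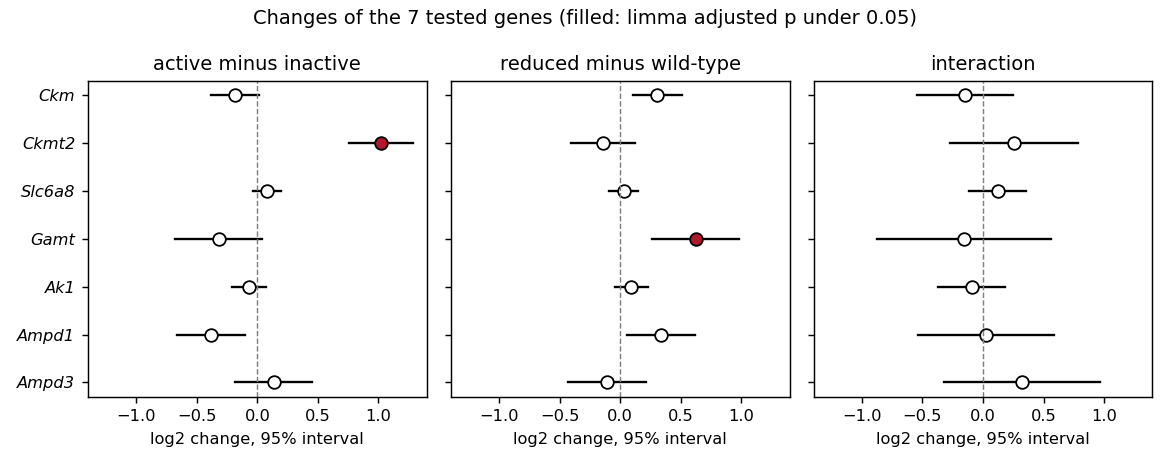
Log2 changes of the 7 tested genes (points) with 95% intervals (lines) for active minus inactive mice, myostatin-reduced minus wild-type mice and the activity-by-genotype interaction; filled points passed the limma test. The filled points are Ckmt2 for activity at 1.02 and Gamt for genotype at 0.62, and every interaction interval crosses 0.

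Other genes of adenine nucleotide and creatine metabolism were taken from a list of 53 symbols, of which 41 were in the table and 31 were tested. With activity, 10 of the 31 passed, against 14.5% of all genes tested, and 8 of these rose and 2 fell, beside 579 higher and 472 lower over all genes. The median log2 change was 0.10 against -0.02 over all genes. The list was chosen with earlier results of these data known, so nothing is read from this count or median. Ak4, an adenylate kinase of the mitochondrial matrix, rose by the largest log2 change on the list. It was 6.29, 7.29 and 5.01 normalized reads in IW mice against 12.5, 21.2 and 15.2 for AW, and 9.28, 8.09 and 7.16 for IM against 27.4, 29.2 and 16.5 for AM. Every active mouse stood above every inactive mouse, as for 3.49% of all 10187 genes. The activity change of Ak4 was 1.34 on the log2 scale (SE 0.156, limma adjusted p = 0.00113). Its inactive means (IW 6.20, IM 8.18) were under the filter of 10 and its active means above it (AW 16.3, AM 24.4). Ak4 thus entered the test through the active mice, and the test is given as a description.

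Adk, which phosphorylates adenosine back to AMP, was 72.0, 60.0 and 63.2 normalized reads in IW mice against 74.4, 81.6 and 84.9 for AW, and 54.3, 51.5 and 46.0 for IM against 73.1, 73.6 and 70.7 for AM. The active mice were higher within each genotype, and the IM mice were the lowest group. Adk rose with activity by 0.41 on the log2 scale (SE 0.0597, limma adjusted p = 0.00179) and was lower in myostatin-reduced mice by a log2 change of -0.25 (SE 0.0597, limma adjusted p = 0.032).

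Nucleoside diphosphate kinase gene Nme1, whose enzyme passes phosphate from ATP to other nucleotides, rose and was between 20.9 and 25.1 normalized reads in inactive mice and between 29.8 and 33.8 in active mice (log2 change 0.47, limma adjusted p = 0.00113). Of its 65-base words, 10.7% are shared with Nme2, so reads of the pair could have been split. Nme7, a relative found in cilia and centrosomes, changed by 0.93 (limma adjusted p = 0.0307) at low values of 3.58 to 25.4. Xdh, which makes uric acid at the end of purine breakdown, rose and was between 21.2 and 29.1 in inactive mice and between 29.4 and 59.3 in active mice (log2 change 0.60, limma adjusted p = 0.0037). Nt5c1a, a cytosolic nucleotidase that turns AMP into adenosine, fell (log2 change -0.51, limma adjusted p = 0.031). The other 4 that passed were not named by the rule and are given for completeness. They were Nt5m (0.24), the mitochondrial ADP and ATP carrier gene Slc25a4 (0.22), and the S-adenosylmethionine synthesis genes Mat2b (0.18) and Mat2a (-0.20). Slc25a4 was between 3466 and 4149 normalized reads in inactive mice and between 4091 and 4665 in active mice, so the levels overlapped.

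Between genotypes, 2 of the 31 passed, Adk and Slc7a2, a share near the 5.78% of all genes. Slc7a2, a carrier of arginine and other cationic amino acids, was 59.5 to 82.2 normalized reads for IW, 57.8 to 68.2 for AW, 89.0 to 104 for IM and 68.3 to 89.2 for AM. The lowest AM mouse (68.3) stood only just above the highest AW mouse (68.2), and 14.2% of all genes were separated between these groups. The log2 change of Slc7a2 between genotypes was 0.39 (SE 0.0883, limma adjusted p = 0.025). For the interaction, 0 of the 31 passed, with 0 at an unadjusted limma p under 0.05. With fibre score adjustment, 6 of the list passed for activity in place of 10, while over all genes 399 passed in place of 1051. Ak4 (1.17), Nme1 (0.45), Xdh (0.43), Adk (0.33), Nt5m (0.30) and Slc25a4 (0.22) were the 6, and Nme7 (limma adjusted p = 0.191), Nt5c1a (limma adjusted p = 0.174), Mat2a (limma adjusted p = 0.24) and Mat2b (limma adjusted p = 0.0857) did not pass. The genotype change of Adk was then -0.20 (limma adjusted p = 0.0647).

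**Figure D4:**
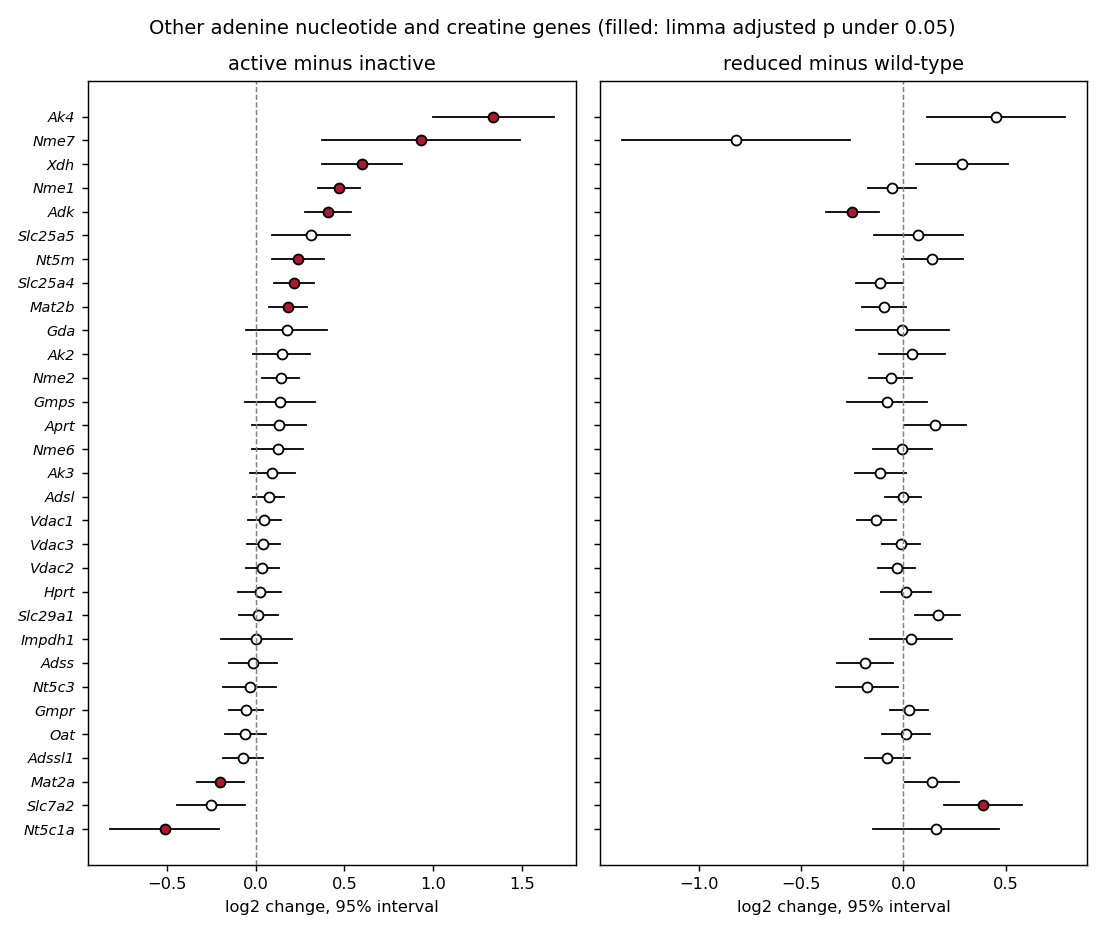
Log2 changes (points) with 95% intervals (lines) of the 31 other genes of adenine nucleotide and creatine metabolism, ordered by their activity change, for active minus inactive mice (left) and myostatin-reduced minus wild-type mice (right); filled points passed the limma test. Of these, 10 are filled for activity, led by Ak4 at 1.34, and 2 for genotype, Slc7a2 at 0.39 and Adk at -0.25.

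The genes whose values followed each member most closely over the 12 mice were sought among the 2551 genes that averaged 50 or more. These likenesses share the groups and the fibre content of the mice and are given as descriptions. For Ckmt2 they were Mdh1 (Pearson r 0.993), Prdx5 (0.988) and Dlst (0.984), and with the group means removed r was 0.986, 0.924 and 0.966. For Ckm they were Sar1b (0.978), Tmod1 (0.974) and Pkm2 (0.972). For Gamt they were Ank1 (0.963), Aimp2 (0.962) and Exoc7 (0.952), and for Ak1 they were Cdc34 (0.98), Kctd15 (0.939) and Cd164 (0.934). Ampd1 was followed by Eml1 (0.955), Ces1d (0.951) and Dnase1l1 (0.948), and Ampd3 by Dazap2 (0.874), 4931406P16Rik (0.873) and Poldip2 (0.868). Slc6a8 was followed by Ppp2r4 (0.926), Txnl4a (0.849) and Tmem201 (0.844), and Ckb by Epas1 (0.903), Iqsec1 (0.898) and Cds2 (0.881).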

How the data were processed

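Polyadenylated RNA of 12 triceps brachii samples was sequenced by the authors in single-end runs of 65 bases (Illumina Genome Analyzer IIx), mapped to mm9 with CASAVA (version not given in the sources used here) and counted in RefSeq exons summed to genes. The authors deposited a signal in the form of normalized read counts, scaled to equal trimmed means and not divided by gene length. Use of strand in the counting was not stated. In each of the 10187 genes the highest group mean was at least 3.0, so weaker genes were not analysed here. The step between low values gave what 1 read is worth, 0.077 to 0.105, and a floor of 3 reads of 0.231 to 0.316, for counting error only. Whole multiples of it (within 0.1 step) made up 90.4% to 92.6% of the values under 5, which was not nearly all, so no count model was used.

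Groups were taken from the sample titles. Samples are from different mice, and each p-value measures the spread between mice. limma 3.58.1 in R 4.3.3 (lmFit, contrasts.fit, eBayes with a trend) was fitted to all 12 samples on log2(value + 1), which understates changes of low genes, for the 7247 genes with a mean of at least 10. P-values were two-sided. Scripts were tested on simulated data. The isoform tests of the study need the reads and were not repeated. The slow-fibre score was the mean log2 deviation of 10 marker genes. Alternatives were a pseudocount of 0.5, no filter, a replicate block, median-of-ratios scaling, sample weights, no trend, the slow-fibre score and leaving out each mouse. Named were the 9 members, Mstn, the 3 genes most like each member and up to 6 called list genes per contrast with the largest change; the genes most like Gatm are not reported here. The members and gene lists were chosen with earlier results of these data known. Positions and exon lengths came from GENCODE on NCBIM37 (mm9) and promoters from RefSeq. Slc6a8 and Ampd1 were not matched to a promoter.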

Additional observations from a re-analysis of the deposited data

How the results depend on the processing

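With 3 mice a group and low values for Gamt, Gatm and Ckb, calls near the threshold moved with single mice. Of 399 recomputed values (21 results of single members, each under every alternative), 365 kept their direction and side of the threshold, 10 lost a call, 10 gained it and 14 changed sign. Only Ckmt2 for activity and Gamt for genotype were called in the main fit, so most values that kept their side were never called. The 10 lost calls were all of Gamt for genotype, in 8 of 12 fits with a mouse left out and 2 of 7 other settings. A pseudocount of 0.5, no filter and median-of-ratios scaling changed no member's call. Members called for activity (1) became 2 with sample weights, where Ampd1 joined, and 1 to 2 with a mouse left out. Members called for genotype (1) became 0 with the replicate block (Gamt, limma adjusted p = 0.0712), 2 with sample weights and 2 without the trend, where Ckm joined, and 0 to 3 with a mouse left out. Replicate numbers stand for different mice, and the correlations of same-numbered mice averaged between -0.274 and 0.243 over pairs of groups. Members called for AW minus IW (0) became 1 with sample weights and 1 with the slow-fibre score, and 0 to 1 with a mouse left out (1 without AW mouse 1).

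List genes called for activity (10) became 6 with the slow-fibre score, 13 with sample weights, 9 with no filter, 9 without the trend and 4 (without AW mouse 3) to 13 with a mouse left out. For genotype (2) they became 0 to 4 with a mouse left out. Ak4, Nme1, Xdh and Adk kept their activity call without any 1 mouse, whereas Slc25a4 lost it without AW mouse 3, Mat2b in 6 of 12 fits, Nme7 in 7, Nt5c1a in 8, Mat2a in 8 and Nt5m in 9. Mat2a also lost it with no filter (limma adjusted p = 0.052), the replicate block (0.0617) and no trend (0.0617), and Nt5m with the replicate block (0.0527). The genotype call was lost in 7 of 12 fits for Adk and in 4 for Slc7a2 (AW mice 2 and 3, IM mice 1 and 2). All genes called for activity (1051) became 1740 with sample weights, 399 with the slow-fibre score and 552 to 1488 with a mouse left out. For genotype (419) they became 608 with sample weights and 182 to 573 with a mouse left out, and for the interaction (0) 0 to 1 with a mouse left out.

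The changes of sign were all of values that did not pass the test. With the slow-fibre score the activity change was 0.0231 for Ak1 and -0.0903 for Ampd3, the genotype change 0.0233 for Ckmt2 and 0.0468 for Ampd3, and the interaction 0.0212 for Gamt, which was 0.0827 with sample weights. With a mouse left out the interaction was -0.375 to 0.0514 for Gamt and -0.126 to 0.243 for Ampd1. The cause of these moves was not tested.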
